A study of Mus musculus with 24 samples.

Results

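The aryl hydrocarbon receptor (AhR) genes described here are 6 of the 35742 genes in the tables, found by their symbols: the receptor gene Ahr, its partner gene Arnt, and the target genes Tiparp, Cyp1a1, Cyp1b1 and Nqo1. They were followed through total RNA sequencing of the mouse embryonic stem (mES) line V6.5 with BRD2 fused to a degron, which lets the protein be destroyed when auxin is added. BRD2 is a BET family protein that binds acetylated histones. Cultures of all 8 groups were given doxycycline (Dox) at 1 µg/ml for 18 h. For 4 groups, 24 h with 500 µM of indole-3-acetic acid (IAA), a plant auxin, came on top. The mES groups were kept in 2i medium with LIF, which holds cells in the naive state, and the EBD2, EBD3 and EBD4 groups were embryoid bodies of day 2, 3 or 4 grown without LIF. Each of the 4 stages had a Dox and an IAA group of 3 libraries, 24 libraries in all. No label says whether the 3 libraries were separate cultures, so p-values measure only the spread between these libraries. IAA was given only to cells with the degron in these groups, so IAA as a compound and loss of BRD2 cannot be told apart.

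AhR is a ligand-activated transcription factor of the bHLH-PAS family that waits in the cytoplasm with Hsp90 and other chaperones. When bound by a ligand, among them dioxin, polycyclic aromatic compounds and several indoles made from tryptophan, it enters the nucleus, pairs with Arnt and binds xenobiotic response elements with the core GCGTG. Its best known targets are the P450 genes Cyp1a1 and Cyp1b1, whose enzymes oxidise many AhR ligands, Nqo1, a quinone reductase gene that also answers to the oxidative stress factor NRF2, and Tiparp, whose product is a mono-ADP-ribosyltransferase that turns AhR signalling down. Indole-3-acetic acid is itself an indole.

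The promoter windows of the 4 targets are shown because the core motif is the letters through which AhR and Arnt read DNA. Each runs from 250 bases before to 50 bases after the gene's start in RefSeq (GRCm38.p6), in the gene's own direction, and capitals mark GCGTG or its reverse complement CACGC. Tiparp is chr3:65528197-65528496 on the plus strand, Cyp1a1 chr9:57697363-57697662 on the plus strand, Cyp1b1 chr17:79715012-79715311 on the minus strand and Nqo1 chr8:107403156-107403455 on the minus strand.
Tiparp: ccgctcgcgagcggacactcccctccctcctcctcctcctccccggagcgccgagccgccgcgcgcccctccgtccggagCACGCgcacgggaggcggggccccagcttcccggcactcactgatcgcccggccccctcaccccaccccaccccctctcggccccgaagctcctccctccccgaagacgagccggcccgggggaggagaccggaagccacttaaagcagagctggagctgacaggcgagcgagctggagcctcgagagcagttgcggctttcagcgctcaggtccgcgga
Cyp1a1: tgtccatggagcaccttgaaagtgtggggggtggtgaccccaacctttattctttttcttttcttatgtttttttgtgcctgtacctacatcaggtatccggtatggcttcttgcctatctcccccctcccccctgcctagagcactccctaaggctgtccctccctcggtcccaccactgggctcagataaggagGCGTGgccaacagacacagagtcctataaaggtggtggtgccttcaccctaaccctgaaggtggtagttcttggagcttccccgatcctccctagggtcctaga
Cyp1b1: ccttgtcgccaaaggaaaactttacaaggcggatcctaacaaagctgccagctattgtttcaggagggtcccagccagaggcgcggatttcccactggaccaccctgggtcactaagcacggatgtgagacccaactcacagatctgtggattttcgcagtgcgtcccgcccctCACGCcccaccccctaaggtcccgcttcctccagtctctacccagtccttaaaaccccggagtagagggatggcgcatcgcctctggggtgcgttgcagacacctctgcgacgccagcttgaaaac
Nqo1: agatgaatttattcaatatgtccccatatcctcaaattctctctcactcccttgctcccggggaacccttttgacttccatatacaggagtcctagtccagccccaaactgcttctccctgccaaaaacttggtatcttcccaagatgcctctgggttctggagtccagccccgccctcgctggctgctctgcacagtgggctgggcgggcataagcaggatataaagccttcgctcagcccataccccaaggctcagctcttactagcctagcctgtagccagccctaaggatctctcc
The Tiparp window held 1 core, 170 bases before the start, in a sequence of 73.7% G and C. The Cyp1a1 window held 1 core 54 bases before the start, and the Cyp1b1 window held 1 core 76 bases before it. These 2 windows had 54.0% and 58.3% G and C. No core was in the Nqo1 window. The Arnt window (not printed) also held 1. Of all 32851 windows of this length 32.4% held at least 1 core on either strand, with 32.6% among windows of 50 to 60% G and C and 65.0% among those of 70 to 80%, so a core of 5 letters is common. TGACNNNGC is the core of the antioxidant response element through which NRF2 acts. Searched on both strands, it was in none of the 4 windows, against 12.4% of all windows. The Arnt window held 2. Sequence outside the windows was not searched, so a window without a core does not show that the gene lacks such an element. The receptor gene Ahr was not among the sequences matched.

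Recovered reads per library ranged from 7819522 to 15732767. Depth differed between stages, with 11005217 to 15732767 reads in the mES and EBD2 libraries and 7819522 to 10598075 in those of EBD3 and EBD4. The part of this in comparisons between these stages was not tested. EBD4 was also split by depth, with 7941180 to 8120480 reads in its Dox libraries and 9007143 to 10598075 in its IAA libraries. Levels are counts that the authors divided by 1 size factor per library, and Brd2 RNA, which does not show whether the protein was destroyed, rose with IAA in every stage (limma log2 fold changes from 0.38 to 0.87). The marker sums set mES apart from the embryoid bodies. The summed level of 5 naive markers (Pou5f1, Nanog, Zfp42, Esrrb, Klf4) was 38789 to 45588 in mES and 8951 to 11606 in embryoid bodies. That of 4 epiblast markers (Fgf5, Otx2, Dnmt3b, Pou3f1) was 556 to 1352 in mES and 18571 to 33209 in embryoid bodies. Naive sums did not separate EBD2 Dox (10106.5 to 11004.3) from EBD4 Dox (10772.8 to 11605.7). Pou5f1 made up most of the EBD2 Dox sum, with group means of 9707 in mES Dox and 9083 in EBD2 Dox. Nanog stood at 9598 in mES Dox, 526 in EBD2 Dox and 4788 in EBD4 Dox. Replicates differed most within EBD4 IAA and EBD2 Dox, with a chi-square per degree of freedom of up to 4.90 and 4.09 between their replicates 1 and 3. In EBD4 the summed level of 4 primitive streak markers (T, Mixl1, Eomes, Mesp1) was 3083, 2448 and 1256 in the Dox libraries and 111, 526 and 2217 in the IAA libraries, none of the 4 being at 0 throughout a group. The summed level of 6 fibroblast markers was 229 to 402 in EBD4 Dox, with Lum at 0, and 367 to 536 in EBD4 IAA, with Lum and Postn at 0. Thy1 made up most of this sum (group means of 259 in Dox and 392 in IAA), while Col1a1 (14.7 and 13.7) and Col1a2 (25.6 and 12.1) were not higher with IAA and Dcn (4.59 and 7.13) was low. The summed level of 4 hepatocyte markers was at most 4.25 in any library. In whole cultures, fewer cells of a type and less RNA per cell cannot be told apart.

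The 6 genes spanned a wide range of levels. Per kilobase of exon in the mES Dox libraries, Nqo1 stood at 349.9 normalized reads, Arnt at 219, Tiparp at 87.1, Ahr at 10.7, Cyp1a1 at 1.39 and Cyp1b1 at 0.0517. In EBD4 with IAA the order was Tiparp at 264, Arnt at 225, Nqo1 at 145, Ahr at 23.4, Cyp1a1 at 9.85 and Cyp1b1 at 5.95, all per kilobase. Both P450 genes were therefore the least abundant of the 6 at either end of the series, and in no library did Cyp1a1 exceed 31 reads or Cyp1b1 40.

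**Figure D1:**
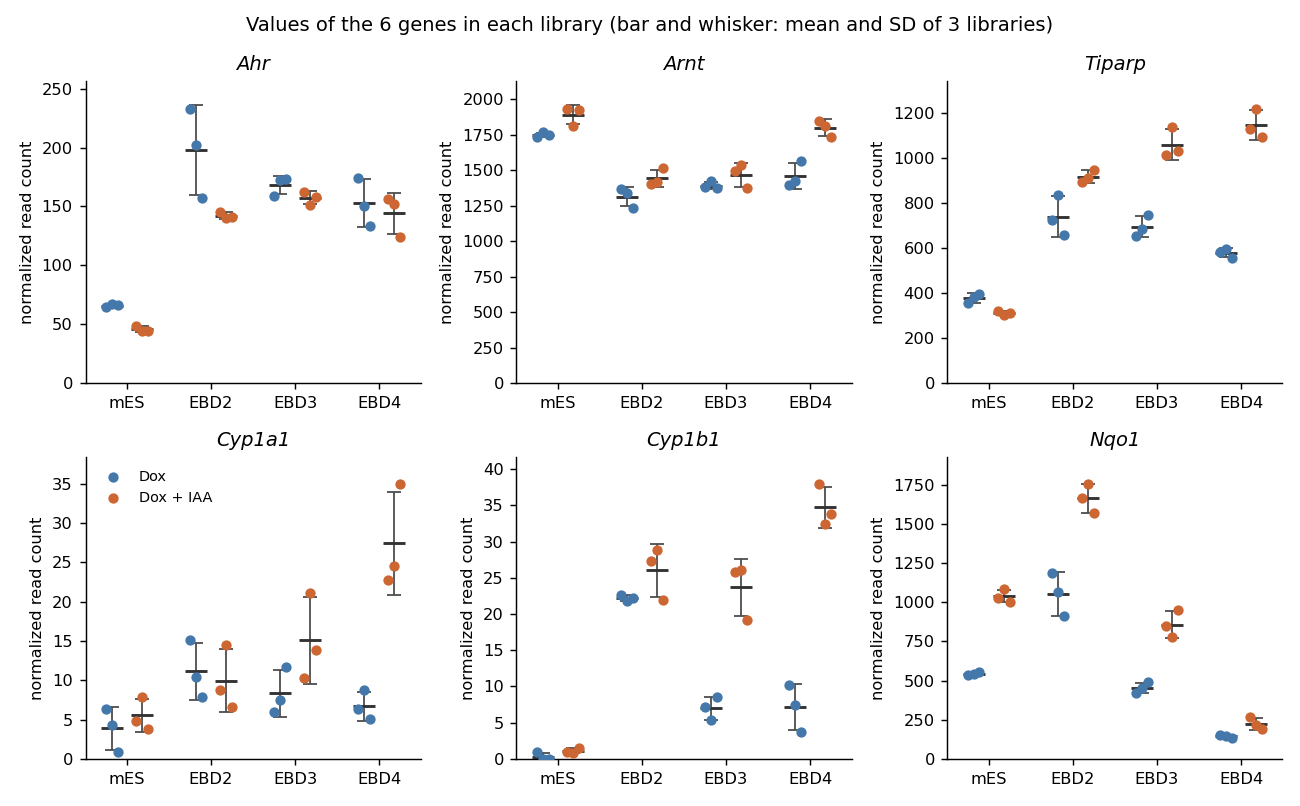
Normalized read count of each of the 6 genes in each of the 24 libraries by stage, with blue points for Dox, orange points for Dox with IAA, and the mean and SD of 3 libraries as bar and whiskers. In Tiparp the IAA points lie below the Dox points in mES and above them in every embryoid body stage, and in Nqo1 they lie above them in all 4 stages.

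Whether IAA changed the receptor and its targets was tested within each stage with limma on log2 of the normalized count plus 1, a scale that understates the change of low genes. "Rose" and "fell" stand for an adjusted p below 0.05 over all genes tested in that stage. In mES, 4 of the 5 genes tested passed, Arnt and Nqo1 up and Ahr and Tiparp down, where 37.5% of all 20865 tested genes passed. In EBD2, 3 of 6 passed, Tiparp and Nqo1 up and Ahr down, where 30.1% of all genes passed. In EBD3, 3 of 6 passed, all up (Tiparp, Cyp1b1 and Nqo1), where 10.5% of all genes passed. In EBD4, 5 of 6 passed, all up (Arnt, Tiparp, Cyp1a1, Cyp1b1 and Nqo1), where 10.3% of all genes passed. The median log2 fold change of the tested members was 0.11, 0.17, 0.69 and 0.81 in the 4 stages in order, beside medians over all genes of -0.01, -0.04, -0.01 and -0.01. None of these IAA calls was lost when any single library was left out.

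**Figure D2:**
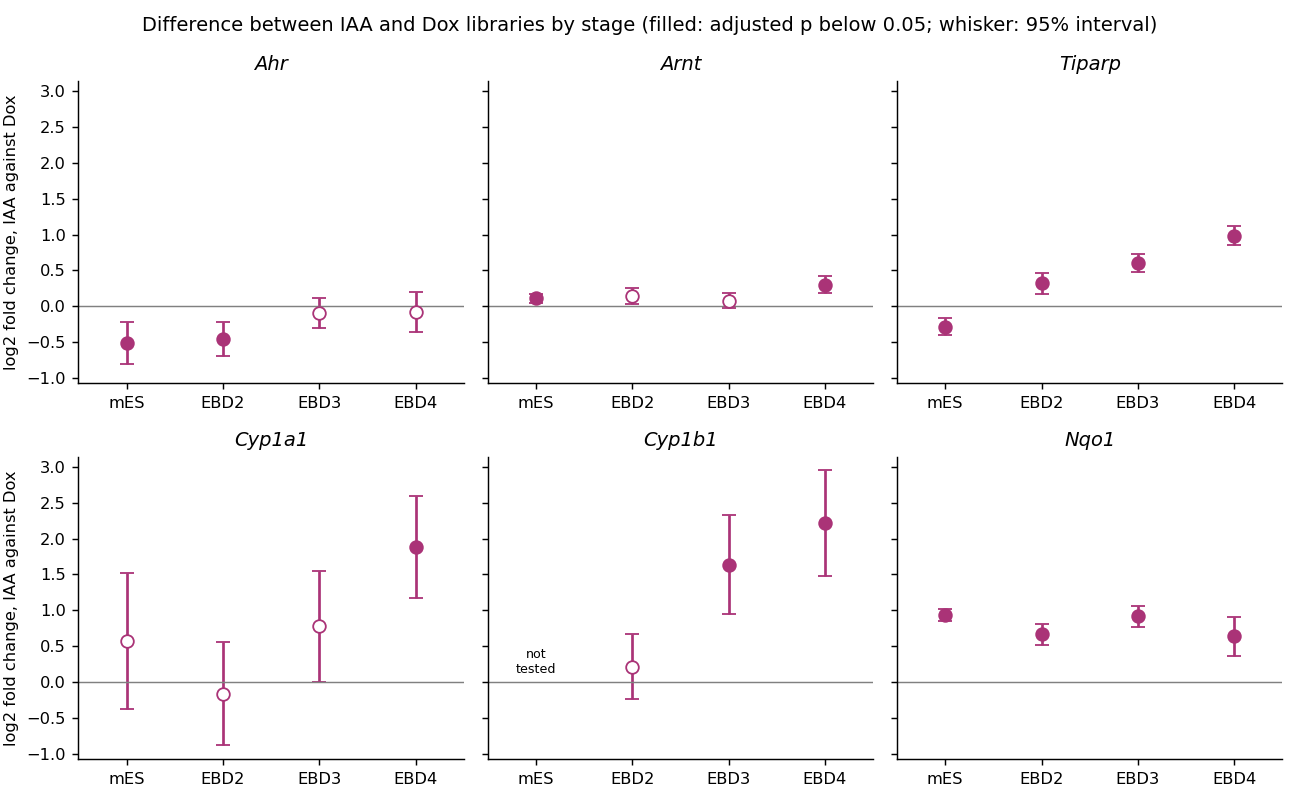
limma log2 fold change of IAA against Dox for each gene by stage, with 95% intervals as whiskers and filled points where the adjusted p was below 0.05. Tiparp goes from -0.28 in mES to 0.99 in EBD4, the P450 genes reach 1.89 and 2.21 in EBD4, and Nqo1 lies between 0.63 and 0.93 in all stages.

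Ahr (ENSMUSG00000019256, mm10 chromosome 12, 35497974 to 35535038, minus strand), which codes for the receptor, fell with IAA in mES and EBD2. In mES it stood at 64.3, 66.9 and 66.0 in the Dox libraries and at 48.8, 44.0 and 44.4 in the IAA libraries (65.7 ± 1.30 against 45.8 ± 2.67, SD, n = 3). The groups did not overlap, and Ahr fell by 0.51 on the log2 scale (SE 0.14, limma adjusted p = 0.00354). In EBD2 it stood at 233, 202 and 157 in the Dox libraries and at 146, 139.8 and 141 in the IAA libraries (198 ± 38.2 against 142 ± 3.07). All Dox libraries were above all IAA libraries, though Dox replicate 3 was close to them, and Ahr fell by 0.45 (SE 0.11, limma adjusted p = 0.00454). Leaving out any 1 of the 6 EBD2 libraries gave log2 fold changes of -0.61 to -0.32, all past the threshold. In EBD3 the Dox libraries stood at 159, 172 and 173 and the IAA libraries at 163, 152 and 158. In EBD4 they stood at 174, 151 and 133 and at 156, 152 and 124. The groups overlapped in both, with limma log2 fold changes of -0.09 (95% interval -0.31 to 0.12, adjusted p = 0.653) and -0.08 (-0.36 to 0.19, adjusted p = 0.762). The order of the 8 groups by Ahr level put EBD2 Dox first and both mES groups last. The other 5 embryoid body groups came between them, each overlapping its neighbour in that order, and both mES groups lay apart from all of these. A long noncoding gene on the opposite strand, Gm48236, overlaps Ahr and averaged 0.136 normalized reads.

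Arnt (ENSMUSG00000015522, mm10 chromosome 3, 95434388 to 95497240, plus strand), which codes for the partner that AhR shares with the hypoxia factors, moved little. In mES it stood at 1735, 1768 and 1747 in the Dox libraries and at 1936, 1816 and 1923 in the IAA libraries. The groups did not overlap, and Arnt rose by 0.11 on the log2 scale (SE 0.03, limma adjusted p = 0.0047). This call was lost when all 24 libraries shared 1 fit (0.11, adjusted p = 0.0959). In the authors' deposited DESeq2 results Arnt did not pass in mES (0.11, adjusted p = 0.0739) but did in EBD2 (0.14, adjusted p = 0.0282). In EBD4 it stood at 1397, 1423 and 1566 in the Dox libraries and at 1851, 1814 and 1733 in the IAA libraries (1462 ± 91.1 against 1799 ± 60.0). Every IAA library was above every Dox library, and Arnt rose by 0.30 (SE 0.05, limma adjusted p = 0.00316). In EBD2 the Dox libraries stood at 1366, 1343 and 1237 and the IAA libraries at 1406, 1416 and 1514, a limma log2 fold change of 0.14 (SE 0.05, adjusted p = 0.0584). The libraries of EBD2 did not overlap, and the value passed with edgeR (0.17, adjusted p = 0.0129), DESeq2 (0.16, adjusted p = 0.0389), TMM scaling (0.17, adjusted p = 0.0164), a higher minimum level (adjusted p = 0.0443) and 1 fit of all 24 libraries (adjusted p = 0.0373). In EBD3 the groups overlapped (1382, 1424 and 1374 against 1499, 1537 and 1374), with a limma log2 fold change of 0.08 (adjusted p = 0.397). Arnt varied least of the 6 genes, with the highest group mean 1.44 times the lowest, while that of Ahr was 4.32 times its lowest. A processed pseudogene within Arnt, Gm42672, averaged 8.57 normalized reads, and whether reads were counted by strand is not given in the sources used here.

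Tiparp (ENSMUSG00000034640, mm10 chromosome 3, 65528410 to 65555518, plus strand), the feedback gene, went from lower with IAA in mES to nearly double in EBD4. In mES it stood at 357, 383 and 399 in the Dox libraries and at 319, 304 and 311 in the IAA libraries (380 ± 21.1 against 311 ± 7.81). All IAA libraries were lower, and Tiparp fell by 0.28 on the log2 scale (SE 0.06, limma adjusted p = 0.000171). In EBD2 it stood at 726, 837 and 657 in the Dox libraries and at 894, 914 and 949 in the IAA libraries (740.3 ± 90.8 against 919 ± 28.2). All IAA libraries were now higher, and Tiparp rose by 0.32 (SE 0.07, limma adjusted p = 0.00151). In EBD3 it stood at 655, 684 and 749 in the Dox libraries and at 1013, 1139 and 1031 in the IAA libraries (696 ± 48.0 against 1061 ± 68.4), a rise of 0.61 (SE 0.06, limma adjusted p = 1.58e-07). In EBD4 it stood at 583, 597 and 558 in the Dox libraries and at 1129.6, 1222 and 1094 in the IAA libraries (579 ± 19.9 against 1148 ± 65.9). The 2 groups were far apart, with a rise of 0.99 (95% interval 0.85 to 1.12, limma adjusted p = 2.06e-06), and of all 21170 genes tested in EBD4 none had a smaller p. In size it was less extreme, with 718 genes above it. Leaving out any 1 of the 6 EBD4 libraries gave 0.94 to 1.02. A transcribed pseudogene on the opposite strand, 4931440P22Rik, overlaps the start of Tiparp and averaged 16.8 normalized reads.

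Cyp1a1 (ENSMUSG00000032315, mm10 chromosome 9, 57687928 to 57703824, plus strand), the P450 gene most used as a readout of AhR, was low throughout and rose in EBD4. It stood at 6.37, 8.72 and 5.04 normalized counts in the EBD4 Dox libraries, or 5, 7 and 4 reads, and at 22.7, 24.6 and 35.0 in the IAA libraries, or 24, 22 and 31 reads. The lowest IAA library was more than double the highest Dox library, and Cyp1a1 rose by 1.89 on the log2 scale (SE 0.33, limma adjusted p = 0.0026), with 35 of the 21170 tested genes above it. In EBD3 it stood at 5.94, 7.45 and 11.7 in the Dox libraries and at 10.3, 21.1 and 13.8 in the IAA libraries. The groups overlapped by 1 Dox library, and the limma log2 fold change was 0.77 (95% interval -0.00 to 1.55, adjusted p = 0.218). In EBD2 it stood at 15.1, 10.4 and 7.89 in the Dox libraries and at 8.83, 14.4 and 6.63 in the IAA libraries, with a limma log2 fold change of -0.17 (-0.88 to 0.55, adjusted p = 0.765). In mES it stood at 6.34, 4.34 and 0.929 and at 4.88, 7.93 and 3.76, with 0.58 (-0.38 to 1.53, adjusted p = 0.369). In both stages the libraries of the groups were mixed. The neighbouring copy Cyp1a2, with which reads could be shared, was listed at 0 in 6 of the 8 groups and averaged 0.701 normalized reads over the 24 libraries.

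Cyp1b1 (ENSMUSG00000024087, mm10 chromosome 17, 79701537 to 79715061, minus strand), the other P450 gene among the members, rose in EBD3 and EBD4. In EBD3 it stood at 7.12, 5.32 and 8.49 in the Dox libraries and at 25.8, 26.1 and 19.1 in the IAA libraries (6.98 ± 1.59 against 23.7 ± 3.95, from 19 and 59 reads in all). No library overlapped, and Cyp1b1 rose by 1.64 on the log2 scale (SE 0.34, limma adjusted p = 0.0016). In EBD4 it stood at 10.2, 7.48 and 3.78 in the Dox libraries and at 37.9, 32.4 and 33.8 in the IAA libraries (7.15 ± 3.22 against 34.7 ± 2.84, from 17 and 99 reads). Again no library overlapped, and Cyp1b1 rose by 2.21 (95% interval 1.48 to 2.95, limma adjusted p = 0.00113), with only 11 of the 21170 tested genes above it. In EBD2 it stood at 22.6, 21.7 and 22.2 in the Dox libraries and at 27.4, 28.9 and 21.9 in the IAA libraries. IAA replicate 3 lay among the Dox libraries, and the limma log2 fold change was 0.21 (-0.24 to 0.66, adjusted p = 0.506). In mES the Dox libraries held 1, 0 and 0 reads and the IAA libraries 1, 1 and 2, a ratio of 3.82 (95% exact interval 0.378 to 188, for counting error only), too few for a difference to be detectable at this depth, and the gene was not tested there.

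In EBD4 the rises of Arnt, Tiparp, Cyp1a1, Cyp1b1 and Nqo1 went together with the higher depth of the IAA libraries and with the marker levels given above, and the part of either in these rises was not tested. Leaving out any 1 of the 6 EBD4 libraries gave 1.71 to 2.07 for Cyp1a1 and 1.87 to 2.49 for Cyp1b1.

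**Figure D3:**
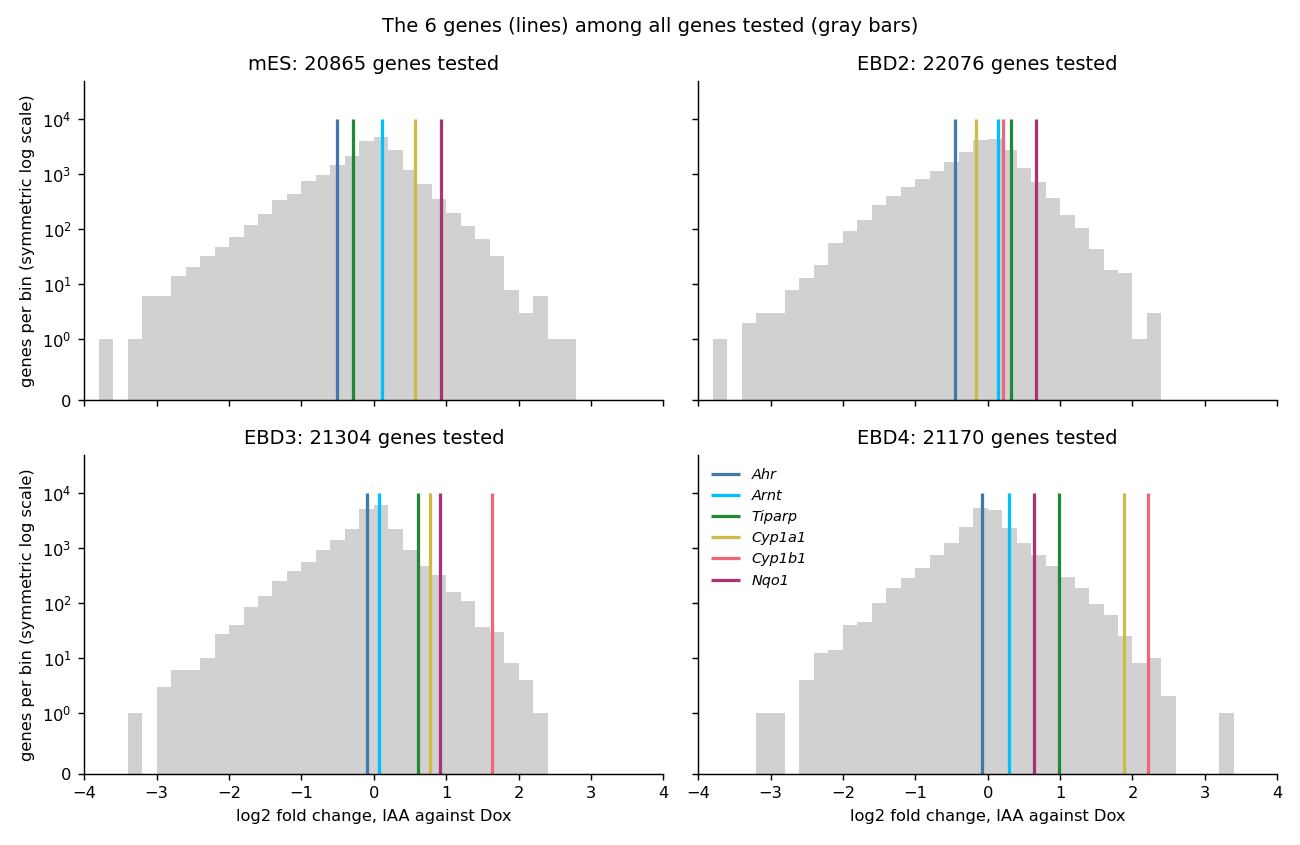
Number of genes per bin of limma log2 fold change (bin width 0.2, symmetric log axis) among all genes tested in each stage, with a coloured line at the value of each of the 6 genes. In EBD4 the lines of Cyp1a1 and Cyp1b1 lie in the upper tail, with 35 and 11 genes above them, and Ahr lies at -0.08 near the centre.

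Nqo1 (ENSMUSG00000003849, mm10 chromosome 8, 107388225 to 107403206, minus strand), the quinone reductase gene, rose with IAA in all 4 stages. In mES it stood at 536, 542 and 552 in the Dox libraries and at 1028, 1082 and 1004 in the IAA libraries (543 ± 7.93 against 1038 ± 39.7). The groups were far apart, with a rise of 0.93 on the log2 scale (SE 0.04, limma adjusted p = 6.57e-20). In EBD2 it stood at 1187, 1066 and 909 in the Dox libraries and at 1663, 1753 and 1569.7 in the IAA libraries, a rise of 0.66 (SE 0.07, limma adjusted p = 4.99e-07). In EBD3 it stood at 421, 451 and 488 in the Dox libraries and at 845, 775 and 951 in the IAA libraries, a rise of 0.91 (SE 0.07, limma adjusted p = 1.9e-09). These groups did not overlap either. In EBD4, at its lowest levels, Nqo1 stood at 154, 143 and 132 in the Dox libraries and at 266, 219 and 188 in the IAA libraries, a rise of 0.63 (SE 0.12, limma adjusted p = 0.00496). All IAA libraries were above all Dox libraries there too.

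Whether the IAA effect itself differed between stages was tested in 1 limma fit of the 24 libraries, with 6 pairs of stages and 36 tests over the 6 genes, adjusted over all 22019 genes. Against mES, only Tiparp passed for EBD2 (0.60, SE 0.10, limma adjusted p = 2.26e-05), where 16.3% of all genes passed, and only Tiparp for EBD3 (0.89, SE 0.10, limma adjusted p = 3.83e-08), where 11.7% passed. For EBD4 against mES, Tiparp passed (1.27, SE 0.10, limma adjusted p = 1.5e-11), and so did Cyp1b1 (1.45, limma adjusted p = 0.0374), where 16.8% of all genes passed. The Cyp1b1 value rests on mES libraries of 0 to 2 reads and was lost with edgeR (0.70, adjusted p = 0.946) and DESeq2 (0.46, adjusted p = 0.866). Leaving out mES Dox replicate 1, mES IAA replicate 1 or 2, EBD4 Dox replicate 3 or any EBD4 IAA replicate also lost it (limma adjusted p from 0.0542 to 0.129). For EBD4 against EBD2, 3 genes passed, where 16.7% of all genes did: Tiparp (0.67, SE 0.10, limma adjusted p = 7e-06), Cyp1a1 (2.05, SE 0.60, limma adjusted p = 0.0149) and Cyp1b1 (2.00, SE 0.49, limma adjusted p = 0.0038). The Cyp1a1 difference was lost without EBD2 Dox replicate 1 (1.83, adjusted p = 0.0522). For EBD4 against EBD3, Tiparp alone passed (0.38, SE 0.10, limma adjusted p = 0.0194), where 4.93% of all genes did, and it was lost without EBD3 Dox replicate 3 (adjusted p = 0.0621), EBD3 IAA replicate 1 (0.0565) or EBD4 IAA replicate 2 (0.0655). For EBD3 against EBD2, 0 of the 6 passed, where 7.22% of all genes did. Tiparp was 0.29 there (limma adjusted p = 0.0648, and 0.00926 without EBD2 Dox replicate 3) and Cyp1b1 1.42 (limma adjusted p = 0.074), the latter past the threshold with edgeR (1.51, adjusted p = 0.014). The Nqo1 effect did not pass in any of the 6 pairs, with differences from -0.30 to 0.25. It did pass for EBD2 against mES without EBD2 Dox replicate 3 (-0.37, limma adjusted p = 0.0424), and without EBD4 IAA replicate 1 for EBD4 against mES (-0.43, limma adjusted p = 0.0119) and against EBD3 (-0.41, limma adjusted p = 0.0454). Ahr and Arnt passed in none of the 6 pairs either, the nearest being Arnt in EBD4 against EBD3 (0.23, limma adjusted p = 0.0547) and Ahr in EBD4 against mES (0.43, limma adjusted p = 0.0825). Both of these values passed without EBD4 IAA replicate 3 (0.25, limma adjusted p = 0.033, and 0.54, limma adjusted p = 0.0303). The Arnt value passed with DESeq2 (adjusted p = 0.0477) and with a minimum level of 10 (limma adjusted p = 0.0393). Arnt in EBD4 against mES (0.19, limma adjusted p = 0.0604) passed with edgeR (adjusted p = 0.0388), TMM scaling (adjusted p = 0.0468) and a minimum level of 10 (adjusted p = 0.0419). Leaving out other single libraries also moved these genes past the threshold with limma. Arnt passed without EBD4 Dox replicate 3 for EBD4 against mES, EBD2 and EBD3 (adjusted p = 0.0152, 0.0307 and 0.015), without EBD4 IAA replicate 3 against mES (0.0383), without EBD3 IAA replicate 2 against EBD3 (0.0331) and without EBD2 Dox replicate 3 against EBD2 (0.0343). Ahr passed without EBD4 Dox replicate 1 for EBD4 against mES (adjusted p = 0.0404), and without EBD2 Dox replicate 3 for EBD3 and EBD4 against EBD2 (0.0458 and 0.0227).

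The course of the genes without IAA was read from the 12 Dox libraries. From mES to EBD2 all 6 genes changed, Arnt down and the others up, where 64.1% of all 22141 tested genes changed. Ahr rose by 1.55 on the log2 scale (SE 0.13, limma adjusted p = 8.91e-11), Tiparp by 0.96 (SE 0.07, limma adjusted p = 3.28e-11) and Nqo1 by 0.95 (SE 0.08, limma adjusted p = 2.68e-10). Arnt fell by 0.41 (SE 0.05, limma adjusted p = 5.19e-08). Cyp1a1 rose by 1.48 (limma adjusted p = 0.00685), a call lost without mES Dox replicate 3, its lowest library (0.91, adjusted p = 0.0761). Cyp1b1 went from 1 read to 81 reads over 3 libraries, a ratio of 74.0 (95% exact interval 12.9 to 2960.3, for counting error only). From EBD2 to EBD3, 2 of the 6 changed, where 46.4% of all genes did: Nqo1 fell by 1.21 (SE 0.08, limma adjusted p = 1.55e-11) and Cyp1b1 by 1.56 (SE 0.42, limma adjusted p = 0.00366). From EBD3 to EBD4, 2 of the 6 changed, where 33.7% of all genes did: Nqo1 fell by 1.66 (SE 0.08, limma adjusted p = 2.17e-13) and Tiparp by 0.26 (SE 0.07, limma adjusted p = 0.00695). The Tiparp step was lost without EBD3 Dox replicate 3 (-0.21, adjusted p = 0.0584). In the Dox libraries Cyp1b1 thus went from 22.2 ± 0.452 in EBD2 to 7.15 ± 3.22 in EBD4, while the IAA libraries stood at 26.0 ± 3.68 and 34.7 ± 2.84 in the same stages.

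The genes around the receptor were read from lists, each given as the number past the threshold among the genes tested. No test of a list was made, and the shares below are to be read beside the 37.5%, 30.1%, 10.5% and 10.3% of all genes that passed in mES, EBD2, EBD3 and EBD4. Of 17 genes of the AhR complex, its co-factors and its turnover, 7 rose and 3 fell in mES. In the embryoid bodies 5 rose and 2 fell on day 2, 4 rose and 3 fell on day 3, and 1 rose and 3 fell on day 4. These are 58.8%, 41.2%, 41.2% and 23.5% of the list in the 4 stages in order. The list medians were close to those over all genes, at log2 fold changes of 0.08, 0.01, 0.02 and -0.01 beside -0.01, -0.04, -0.01 and -0.01. In mES the cytoplasmic chaperone genes Hsp90ab1 (from 43447 ± 501 to 54051 ± 1073, log2 0.31) and Hsp90aa1 (0.28) rose with limma, as did Ddb1 (0.17), an adaptor of ubiquitin ligases. Hsp90ab1 (0.23 and 0.13) and Hsp90aa1 (0.15 and 0.10) also rose on day 2 and day 3, and Ddb1 on day 2 (0.15). The kinase gene Src fell in all 4 stages, by 0.25, 0.61, 0.24 and 0.42 in order. Of the Ncoa coactivator genes, Ncoa1 fell in mES (-0.33) and EBD2 (-0.66), Ncoa2 fell in EBD3 (-0.39) and EBD4 (-0.25), and Ncoa3 rose in mES (0.20), EBD3 (0.20) and EBD4 (0.32). Ep300, another coactivator gene and not among those of smallest adjusted p, rose in mES (0.25), EBD2 (0.16) and EBD3 (0.18). Arnt2, a relative that can stand in for Arnt, fell in mES (-1.11, from 55.8 ± 3.63 to 25.5 ± 3.85), EBD3 (-0.53) and EBD4 (-0.48).

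Other targets of AhR were few among the tested genes. Of 17 listed, 6 were tested in mES, where 2 rose and 1 fell. The embryoid bodies had 10 tested on day 2, with 2 up and 2 down, 8 on day 3, with 1 up and 1 down, and 7 on day 4, with 1 up and 0 down. The called genes were 50%, 40%, 25% and 14.3% of those tested in the 4 stages in order. In EBD4 the 1 that rose was Nfe2l2 (0.37, limma adjusted p = 0.00389), the gene of NRF2, which rose by 0.39 in mES, 0.26 in EBD2 and 0.23 in EBD3 as well and is counted in the next list too. The amino acid transporter gene Slc7a5 rose in mES (0.31) and EBD2 (0.36). Falls were those of Selenbp1 in mES (-0.92), the aldehyde dehydrogenase gene Aldh3a1 (-1.42, from 12.7 ± 2.54 to 4.08 ± 0.665) and Cyp1a2 (-1.56, from 4.48 ± 1.07 to 1.12 ± 1.41) in EBD2, and the actin-severing gene Scin in EBD3 (-0.98). Ahrr, the AhR repressor gene and a textbook target, was picked for mention after its values were seen: it stood at 53.8 ± 10.1 in EBD4 Dox and 47.4 ± 14.6 in EBD4 IAA (log2 -0.21, limma adjusted p = 0.643) and passed in none of the 4 stages.

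Of 21 regulators and targets of NRF2, the other control of Nqo1, 11 rose and 4 fell in mES, 9 rose and 1 fell in EBD2, 13 rose and 0 fell in EBD3, and 8 rose and 0 fell in EBD4. These are 71.4%, 47.6%, 61.9% and 38.1% of the list. The median log2 fold change of the list was 0.16, 0.14, 0.22 and 0.14 in the 4 stages in order, beside -0.01, -0.04, -0.01 and -0.01 over all genes. Ftl1, a ferritin light chain gene, rose in all of them by 0.73, 0.48, 0.51 and 0.63 with limma, from 10717 ± 144 to 17794 ± 967 in mES. Gclc, of glutathione synthesis, rose in each of them by 0.29, 0.73, 0.41 and 0.39. Hmox1, the heme oxygenase gene, did so by 0.89, 0.40, 0.37 and 0.63, and Srxn1, which repairs peroxiredoxins, by 0.61, 0.81, 0.65 and 0.49. The thioredoxin reductase gene Txnrd1 rose by 0.28, 0.14 and 0.25 in the first 3 stages. The falls in mES included Mgst1, a microsomal glutathione transferase gene (-2.70, from 10.5 ± 1.72 to 0.913 ± 0.883), named after its value was seen as the lowest of the list.

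Of the other PARP genes, relatives of Tiparp, 12 were tested in each stage: 0 rose and 7 fell in mES, 1 rose and 5 fell in EBD2, 0 rose and 5 fell in EBD3, and 1 rose and 4 fell in EBD4. These are 58.3%, 50%, 41.7% and 41.7% of the list, and over all genes, too, falls outnumbered rises in each stage (4203 against 3618 in mES and 1180 against 993 in EBD4). The mono-ADP-ribosyltransferase gene Parp10 fell by 1.35, 1.11, 0.60 and 0.49 in the 4 stages in order. Parp12 fell by 0.81, 0.93, 0.52 and 0.54, and Parp9 by 0.36, 0.47, 0.45 and 0.67. Parp1, the DNA damage sensor gene, fell by 0.11 in mES. Parp16 fell by 0.26 in mES and 0.82 in EBD2, and Parp8 by 0.95 in EBD3 and 1.19 in EBD4. The 1 gene that rose in EBD2 and in EBD4 was Parp6, from group means of 143 to 171 and of 287 to 375. Tiparp thus rose in the 3 embryoid body stages while Parp10, Parp12 and Parp9 fell in each of them. The list medians were -0.22, -0.18, -0.18 and -0.24, beside the medians over all genes given above.

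Of the other bHLH-PAS genes, which code for partners of Arnt and their relatives, 0 rose and 2 fell of 10 tested in mES, 1 rose and 1 fell of 12 in EBD2, and 1 fell of 13 in EBD3 and of 11 in EBD4, that 1 being Arnt2 in both. These are 20%, 16.7%, 7.69% and 9.09% of those tested. The EBD3 and EBD4 shares, of 1 gene each, were near the 10.5% and 10.3% of all genes. Those of mES and EBD2, of 2 genes each, were below 37.5% and 30.1%. Hif3a, of the hypoxia family, fell in mES (-1.65, from 69.4 ± 13.0 to 21.3 ± 2.45). Epas1, another hypoxia factor gene, rose in EBD2 (0.41), and the clock gene Arntl2 fell there (-0.61). Of 16 enzymes that make or break down tryptophan products and indoles, 2 rose and 7 fell of 11 tested in mES, 1 rose and 3 fell of 14 in EBD2, and 0 passed of 15 in EBD3 and of 15 in EBD4 with limma. These are 81.8% and 28.6% of those tested in mES and EBD2, the latter near the share of all genes. Ido2, of the kynurenine route, fell in mES (-1.60) and EBD2 (-1.82, from 108 ± 7.63 to 30.5 ± 8.69). The monoamine oxidase gene Maoa fell in mES (-0.47) and Ddc, a decarboxylase gene, in mES (-0.23) and EBD2 (-0.94), while the kynurenine aminotransferase gene Kyat1 rose in mES and EBD2 (0.40 and 0.79).

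**Figure D4:**
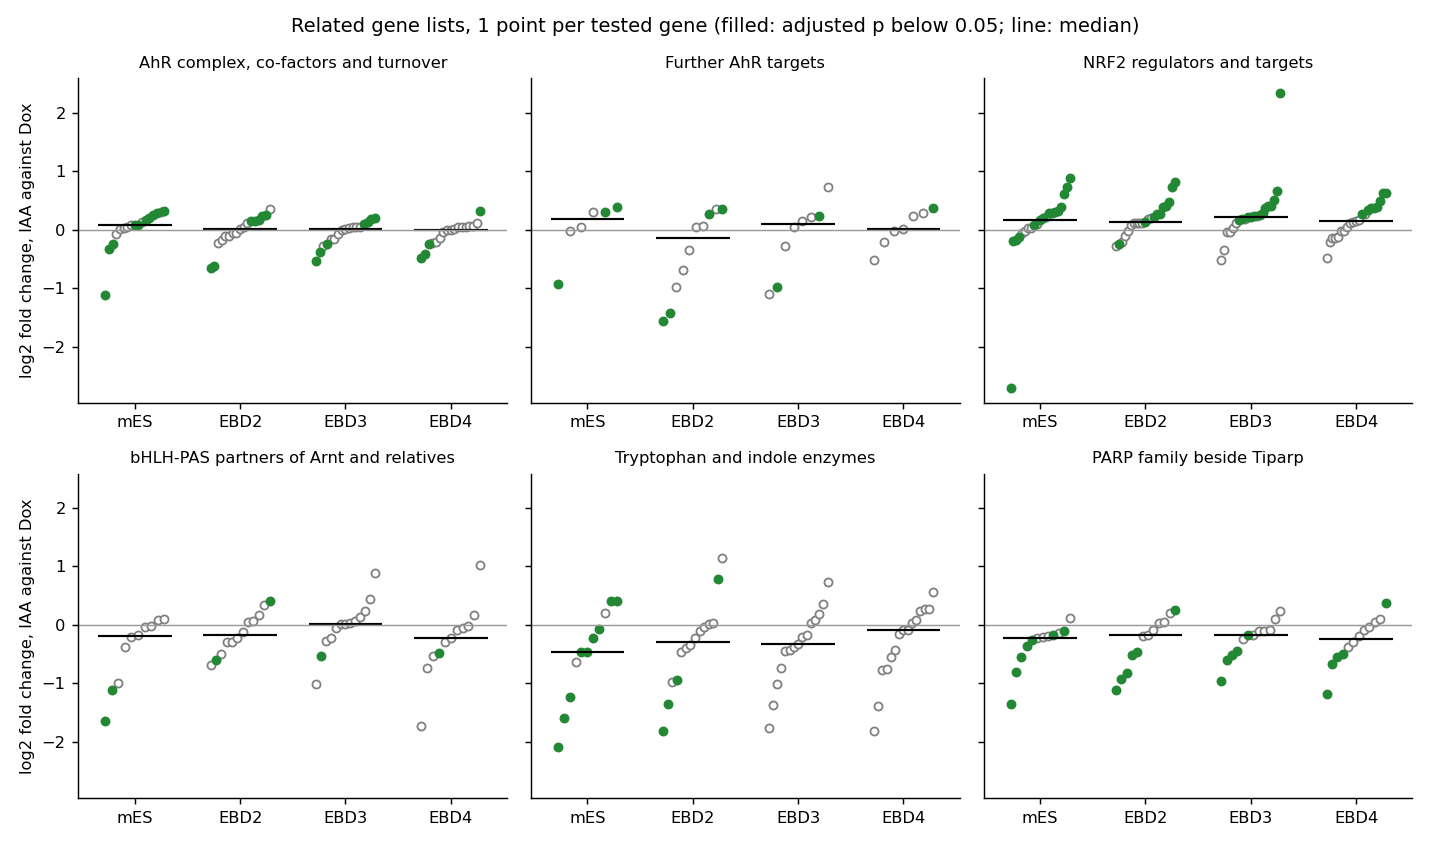
limma log2 fold change of IAA against Dox for each tested gene of 6 related lists by stage, filled where the adjusted p was below 0.05, with a line at the list's median. The NRF2 list has medians between 0.14 and 0.22, and the PARP list between -0.24 and -0.18.

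Across the 24 libraries the targets did not all follow one another. Tiparp and Cyp1b1 had a Pearson r of 0.93 (Spearman rho 0.89), Cyp1a1 and Cyp1b1 0.80 (0.85), and Tiparp and Cyp1a1 0.76 (0.83). Nqo1 had r between -0.16 and 0.05 with the other 5 genes. These points share stage, treatment and library, so they describe the 8 groups more than independent samples. Among 12901 genes with a mean of at least 10, those most like each gene over the 24 libraries were Laptm4b (0.94), Dusp4 (0.93) and Dip2b (0.93) for Tiparp, Rragc (0.95), Ndel1 (0.95) and Fgfr2 (0.94) for Cyp1b1, and Tent4b (0.82), Bbs4 (0.81) and Cry1 (0.81) for Cyp1a1. They were Nefh (0.98), Polr2a (0.97) and Tuba4a (0.96) for Nqo1, Vps36 (0.98), Slc7a7 (0.98) and Duxbl1 (0.98) for Ahr. For Arnt they were Klf10 (0.96), Poli (0.95) and Cldn4 (0.95). These values are Pearson r. Spearman rho ranged from 0.65 for Cry1 to 0.97 for Nefh, with 0.81, 0.81 and 0.87 for Vps36, Slc7a7 and Duxbl1.

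The authors' deposited table called only genes with an absolute log2 fold change above 1, and of the 6 it listed Cyp1b1 in EBD3 (1.75) as up. In EBD4 the authors' deposited table listed Cyp1a1 (2.03) and Cyp1b1 (2.29) as up, while Tiparp, at 0.99 with an adjusted p of 1.84e-32, was listed as unchanged.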

How the data were processed

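Total RNA of 24 libraries was sequenced. Groups were read from the labels. Per the submitters' processing notes, STAR 2.5.3a, featureCounts 1.5.2, DESeq2 (no version) and mm10 were used; the annotation and strand setting are not given in the sources used here. The authors deposited 4 tables of 35742 genes. Their signal values are counts that the authors divided by 1 size factor per library: with a relative tolerance of 1e-06, 100% of the values were whole reads, and the deposited mean is that of the 24 libraries, so the tables share a scale. The deposited log2 fold changes and their SE, the score (Wald statistic) and the p-value columns come from DESeq2, per the file headers, and only fold changes, adjusted p and calls were used, for comparison. Genes without a symbol held 1.12% to 1.32% of the reads and stayed in.

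limma 3.58.1 (trend, R 4.3.3) was run on log2(value + 1), leaving out genes whose mean was under 1, and p-values were adjusted by Benjamini-Hochberg (threshold 0.05). Fitted were each stage alone (6 libraries), the 12 Dox libraries for the stages, and all 24 for differences between stages. Alternatives were constants of 0.5 and 5, no minimum, a minimum of 10, TMM factors, edgeR 4.0.16 (quasi-likelihood) and DESeq2 1.42.0 on the recovered counts, 1 joint fit, the replicate number as a block and leaving out each library. The fits of IAA against Dox were tested on simulated data, with changes placed only in genes with a mean of at least 10. Lower values, such as those of the P450 genes in mES, and changes as small as that of Arnt in mES were not covered. Intervals of read ratios are exact (95%) and cover counting error only, and totals of up to 3 reads were treated as the floor. All 24 replicate pairs were more unlike than sampling noise alone (chi-square over its degrees of freedom from 1.11 to 4.90). Replicate numbers were not used as pairs in the main fits. Correlations between libraries of the same number (-0.22 to 0.11 within stages) cannot show whether they were paired. Positions and exonic lengths are from GENCODE M21, and promoters from RefSeq, which matched 5 of the 6 genes.

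The members and lists were chosen with earlier results of these data known. All members are named, with up to 3 genes per list and stage of the smallest adjusted p among those past the threshold, and the 3 genes most correlated with each member; genes without a usual symbol were skipped in the last.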

Additional observations from a re-analysis of the deposited data

Results flagged for a closer look

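The effect of IAA differed between stages in 8 of the 36 tests over the 6 genes (limma interaction, adjusted over all genes). Over all genes tested, 4.93% to 16.8% passed in the 6 pairs of stages. For Tiparp the log2 effect was higher in EBD2 than in mES by 0.60, in EBD3 than in mES by 0.89, in EBD4 than in mES by 1.27, in EBD4 than in EBD2 by 0.67 and in EBD4 than in EBD3 by 0.38. For Cyp1b1 it was higher in EBD4 than in EBD2 by 2.00 and than in mES by 1.45. The last value rests on mES libraries of 0 to 2 reads, in which Cyp1b1 was too low to be tested alone, and it was lost in 12 alternatives (edgeR 0.70, adjusted p = 0.946, and DESeq2 0.46, adjusted p = 0.866), so it is given as a value and carries no statement. For Cyp1a1 the effect was higher in EBD4 than in EBD2 by 2.05, a call lost without EBD2 Dox replicate 1 (limma adjusted p = 0.0522). The Tiparp difference of EBD4 from EBD3 was lost without EBD3 Dox replicate 3, EBD3 IAA replicate 1 or EBD4 IAA replicate 2 (limma adjusted p from 0.0565 to 0.0655). Comparisons with a stage in common share its libraries.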

How the results depend on the processing

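The values of the 6 genes were compared under all alternatives that gave them an adjusted p. Of these, 1232 kept their direction and side of the threshold, 36 passed it where the reported value had not, 19 lost it, 33 changed sign or moved without passing in either case, and 0 reversed. Of the 19 lost, 12 were Cyp1b1 in EBD4 against mES (as low as 0.46), a value that rests on mES libraries of 0 to 2 reads. The cause of the other changes was not tested. Counts of genes moved most in the later stages. In EBD3, 2245 genes passed, against 1295 with DESeq2 and 1202 to 2613 without single libraries. In EBD4, 2173 passed, against 3425 with all 24 libraries in 1 fit, 1365 with the replicate block and 776 to 2039 without single libraries. For the difference of EBD4 from EBD3, 1086 passed, against 721 without a minimum level and 552 to 1358 without single libraries. Of the members, 1 rather than 2 rose in mES in the joint fit (Arnt was lost), and 3 rather than 5 in EBD4 with DESeq2, which gave Cyp1a1 (2.04) and Cyp1b1 (2.30) no adjusted p. Their unadjusted DESeq2 p-values there were 0.000223 and 7.79e-06. Cyp1b1 in EBD3, a rise with limma, had no adjusted p with DESeq2 either (1.76, unadjusted p = 0.000812). The DESeq2 results deposited by the authors did hold adjusted p-values for these rises. They were 0.0016 for Cyp1a1 and 1.38e-05 for Cyp1b1 in EBD4, and 0.00216 for Cyp1b1 in EBD3. The replicate block changed the members' calls in 2 tests, both differences of EBD4 from mES: Cyp1b1 was lost (adjusted p = 0.0604) and Nqo1 passed (-0.30, adjusted p = 0.0364). Libraries of the same number correlated between -0.22 and 0.11 within stages. Only in mES did all 3 Dox libraries correlate best with the IAA library of their own number, and those correlations were low (0.02, 0.01 and 0.03). TMM scaling turned no direction of a called member. Depth limits Cyp1a1 and Cyp1b1, which had at most 40 reads in a library.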
